A study of Homo sapiens with 20 samples.

Results

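Described here are 9 genes of the MHC class I pathway, taken by symbol from a table of 78932 gene identifiers: the heavy chains HLA-B, HLA-C, HLA-E and HLA-F, the light chain B2M, the transporter subunits TAP1 and TAP2, the loading factor TAPBP and the transcriptional activator NLRC5. Their RNA was measured by poly(A)-selected RNA sequencing in OPM2, a human multiple myeloma cell line. The inhibitor groups were panobinostat at 10 nM, romidepsin at 10 nM and ricolinostat at 100 nM, each given for 2, 5 or 20 h, and the vehicle group was DMSO. Every group had 2 libraries, described by the labels as independent biological replicates, which made 20 libraries in 10 groups, all from the same cell line. Sample titles and protocols gave 100 nM for ricolinostat, while the treatment field of the same samples gave 10 nM. DMSO carried no harvest time, so an effect of time in culture and an effect of an inhibitor cannot be told apart.

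MHC class I molecules carry peptides from proteins made inside the cell to its surface, where CD8 T cells and natural killer cells read them. The proteasome cuts proteins into peptides, the TAP1-TAP2 transporter moves these into the endoplasmic reticulum, and tapasin, the product of TAPBP, bridges the transporter to an empty heavy chain bound to B2M. Transcription of the heavy chain and B2M genes depends on upstream boxes named W/S, X1, X2 and Y. RFX, CREB or ATF and NF-Y proteins bind these boxes, and NLRC5 is assembled on them without binding DNA itself. Interferon-response and NF-kB elements also take part. Panobinostat and ricolinostat are hydroxamates, ricolinostat being selective for HDAC6, while romidepsin is a cyclic depsipeptide that acts mainly on class I histone deacetylases.

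Total counts per library ran from 17264640 to 29088868, and all 9 genes passed the filter on low counts that left 20957 genes for testing. The plasma cell and myeloma markers were all detected, but their summed level was 1572 to 1575 CPM (the read count scaled to a common library size, with edgeR's TMM factors) after 20 h of panobinostat and 2969 to 2995 CPM after 20 h of romidepsin, against 11310 to 11360 CPM in DMSO. T and NK cell markers summed to at most 1.33 CPM in any library. Myeloid markers summed to 7.66 to 7.74 CPM after 20 h of panobinostat and 2.70 to 3.08 CPM after 20 h of romidepsin, against 0.508 to 0.745 CPM in DMSO, with 1, 1 and 2 of 6 markers at 0 in those groups (S100A8 in each, and FCGR3A in DMSO). CSF1R alone reached 5.37 CPM. Their part in the results below was not tested. In bulk RNA, fewer cells that express a gene and less of its RNA per cell cannot be told apart.

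In vehicle-treated cells the class I genes spanned a wide range of levels per length. HLA-E, a non-classical heavy chain that presents signal peptides of other class I chains to natural killer receptors, led with 166 and 160 CPM per kb of exon in the DMSO libraries. The classical heavy chains followed, HLA-C at 93.1 and 87.3 CPM per kb and HLA-B at 66.7 and 67.7 CPM per kb, and B2M stood at 61.4 and 61.6 CPM per kb. Transporter and loading genes were lower, with TAP1 at 23.5 and 23.8, TAPBP at 18.3 and 18.8, and TAP2 at 8.94 and 9.26 CPM per kb. NLRC5 had 7.30 and 7.67 CPM per kb, and HLA-F, a non-classical chain that can reach the cell surface without peptide, was last at 1.024 and 1.20 CPM per kb. No neighbours in this order overlapped between the DMSO libraries. The length used was that of all annotated exons of a gene joined, 6079 bases for B2M and 3051 for HLA-B. The order depends on that length, since the transcripts present may be shorter. Without division by length, B2M averaged 373.9 CPM in DMSO, against 226 for HLA-C and 205 for HLA-B. Heavy chain genes are polymorphic and share long near-identical stretches. How reads matching several of them were counted is not given in the sources used here, so the split of reads between HLA-B and HLA-C is uncertain.

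The heavy chain and transporter genes lie in the MHC on chromosome 6, in GRCh38 coordinates of GENCODE 29. HLA-B (chr6:31269491-31357188, ENSG00000234745, minus strand) and HLA-C (chr6:31268749-31272130, minus strand) shared 35 exonic bases. TAP2 (chr6:32821833-32838780) and TAP1 (chr6:32845209-32853978) both lie on the minus strand, with the immunoproteasome gene PSMB8 between them and PSMB9 beyond TAP1. B2M lies on chromosome 15 (chr15:44711487-44718877, plus strand) and NLRC5 on chromosome 16 (chr16:56989485-57083531, plus strand). RefSeq promoters of GRCh38.p14, covering 250 bases before to 50 after a start, were given for 7 of the 9 genes and were searched. TAP1 had windows at 2 starts (chr6:32852712-32853011 and chr6:32853655-32853954). Shown are a classical heavy chain, the 1 heavy chain that rose with every inhibitor at 20 h, the light chain, and the pair TAP1 and PSMB9, with the TAP1 window that faces PSMB9. Capitals mark matches, on either strand, to the interferon-response core GAAANNGAA, the CRE core TGACG found in X2 boxes, the Y box CCAAT, the GC box GGGCGG and the NF-kB site.
HLA-B, chr6:31357130-31357429, minus strand: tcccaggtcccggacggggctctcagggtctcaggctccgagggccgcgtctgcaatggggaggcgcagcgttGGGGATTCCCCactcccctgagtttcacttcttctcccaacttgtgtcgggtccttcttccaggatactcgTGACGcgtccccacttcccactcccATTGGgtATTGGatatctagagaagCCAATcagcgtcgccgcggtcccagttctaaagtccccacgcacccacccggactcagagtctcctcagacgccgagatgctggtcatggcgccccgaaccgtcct
HLA-F, chr6:29723184-29723483, plus strand: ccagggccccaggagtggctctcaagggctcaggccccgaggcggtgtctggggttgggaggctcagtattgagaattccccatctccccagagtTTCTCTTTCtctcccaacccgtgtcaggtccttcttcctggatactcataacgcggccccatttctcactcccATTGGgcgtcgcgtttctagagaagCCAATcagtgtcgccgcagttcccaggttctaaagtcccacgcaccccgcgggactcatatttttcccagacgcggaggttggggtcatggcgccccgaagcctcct
B2M, chr15:44711267-44711566, plus strand: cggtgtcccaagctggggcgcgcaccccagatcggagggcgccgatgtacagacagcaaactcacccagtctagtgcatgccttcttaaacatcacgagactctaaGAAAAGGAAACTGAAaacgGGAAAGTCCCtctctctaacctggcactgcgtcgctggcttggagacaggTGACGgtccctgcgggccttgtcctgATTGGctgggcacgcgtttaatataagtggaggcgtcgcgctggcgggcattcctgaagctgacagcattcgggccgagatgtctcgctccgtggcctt
TAP1, chr6:32853655-32853954, minus strand: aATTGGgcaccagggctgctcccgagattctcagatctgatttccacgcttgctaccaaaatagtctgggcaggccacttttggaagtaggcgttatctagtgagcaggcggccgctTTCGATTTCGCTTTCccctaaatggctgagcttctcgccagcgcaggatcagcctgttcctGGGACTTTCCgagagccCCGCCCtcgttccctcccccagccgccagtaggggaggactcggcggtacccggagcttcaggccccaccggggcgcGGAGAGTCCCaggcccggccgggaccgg
PSMB9, chr6:32853942-32854241, plus strand: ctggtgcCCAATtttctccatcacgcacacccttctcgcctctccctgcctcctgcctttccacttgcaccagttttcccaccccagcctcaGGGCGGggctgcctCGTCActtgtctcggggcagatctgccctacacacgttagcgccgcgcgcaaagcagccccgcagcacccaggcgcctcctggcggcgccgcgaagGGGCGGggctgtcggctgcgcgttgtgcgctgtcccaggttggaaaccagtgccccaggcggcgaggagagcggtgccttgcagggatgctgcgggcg

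The HLA-B, HLA-C and B2M windows each held TGACG as well as the Y box CCAAT and an NF-kB match, the letters of the X2 and Y boxes and of the upstream enhancer. The HLA-F window held CCAAT on both strands and an interferon-response core, but no match to TGACG or the NF-kB site. The interferon-response core was also found in TAP2, TAPBP, B2M and the printed TAP1 window, with 1 match in TAP2 and 2 overlapping matches in each of the others. PSMB9 had no such core, nor did HLA-B or HLA-C. The other TAP1 window held a GC box and no match to the other 4 motifs. The TAP1 and PSMB9 windows overlap at their upstream ends, and the CCAAT match in each is the same bases. Of 35116 RefSeq promoters of the same length, 8.11% held the interferon-response core, 24.6% TGACG, 34.6% CCAAT, 45% the GC box and 11.3% the NF-kB site. The 4 NF-kB matches in HLA-B overlap each other on the 2 strands. These are letter matches, and binding was not measured.

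After 20 h of panobinostat, RNA of 8 of the 9 class I genes was lower than in DMSO and RNA of HLA-F was higher. In that comparison 32.3% of all genes tested were lower and 40.8% higher, at an adjusted p under 0.05 from edgeR's quasi-likelihood test with Benjamini-Hochberg adjustment (called the edgeR adjusted p from here on). The median log2 fold change of the 9 genes was -1.22, against 0.25 over all genes. Falls were deepest in the activator, transporter and loading genes and shallower in the heavy and light chains.

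NLRC5 had 15.9 and 16.7 CPM after 20 h of panobinostat, against 90.4 and 95 CPM in DMSO. Its log2 fold change was -2.51 ± 0.07 (SE, n = 2 each), with an edgeR adjusted p of 2.8e-58. After a log2 value, the SE comes from the edgeR fit of all 20 libraries, which shares information on the spread across groups and genes. It is not a spread measured in the compared libraries alone. Both panobinostat libraries were far below both DMSO libraries. TAP2 had 11.0 and 10.9 CPM after 20 h of panobinostat, against 57.1 and 59.2 CPM in DMSO, a log2 fold change of -2.41 ± 0.08 (edgeR adjusted p = 7.9e-49). TAP1, the partner subunit, had 23.1 and 25.1 CPM, against 113 and 114 CPM in DMSO, a change of -2.23 ± 0.06 (edgeR adjusted p = 1.5e-56). TAPBP had 20.5 and 20.6 CPM, against 92.6 and 94.8 CPM in DMSO, a change of -2.19 ± 0.07 (edgeR adjusted p = 1.3e-52). In these 4 genes the percent change ran from -82.4% to -78.1%.

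Among the chains themselves, HLA-C had 94.0 and 100.1 CPM after 20 h of panobinostat, against 233 and 219 CPM in DMSO, a log2 fold change of -1.22 ± 0.05 (edgeR adjusted p = 5e-41). HLA-B had 108 and 109.7 CPM, against 203 and 207 CPM in DMSO, a change of -0.91 ± 0.05 (edgeR adjusted p = 1.5e-35). Neither gene's libraries overlapped between the groups. HLA-E had 334 and 333 CPM, against 493 and 475 CPM in DMSO, a change of -0.54 ± 0.04 (edgeR adjusted p = 6.7e-24). B2M had 250.1 and 261 CPM, against 373 and 375 CPM in DMSO, a change of -0.55 ± 0.04 (edgeR adjusted p = 2.7e-23). The 4 chains fell in every library, and differences in size between genes were not tested. Scaling by library size alone, which put the all-gene median at 0.56, gave -0.24 for B2M and -0.23 for HLA-E, both still lower.

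HLA-F went the other way. It had 12.5 and 12.7 CPM after 20 h of panobinostat, against 4.45 and 5.22 CPM in DMSO, a log2 fold change of 1.38 ± 0.16 (edgeR adjusted p = 3.1e-13). Both panobinostat libraries lay above both DMSO libraries. The opposite-strand transcript HLA-F-AS1, which shares 535 exonic bases or 12.3% of the HLA-F exons, had 3.87 and 4.24 CPM after panobinostat and 0.127 and 0.373 CPM in DMSO. The strand setting of the authors' counting is not given in the sources used here, and the part of these reads in the HLA-F counts was not tested.

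**Figure D1:**
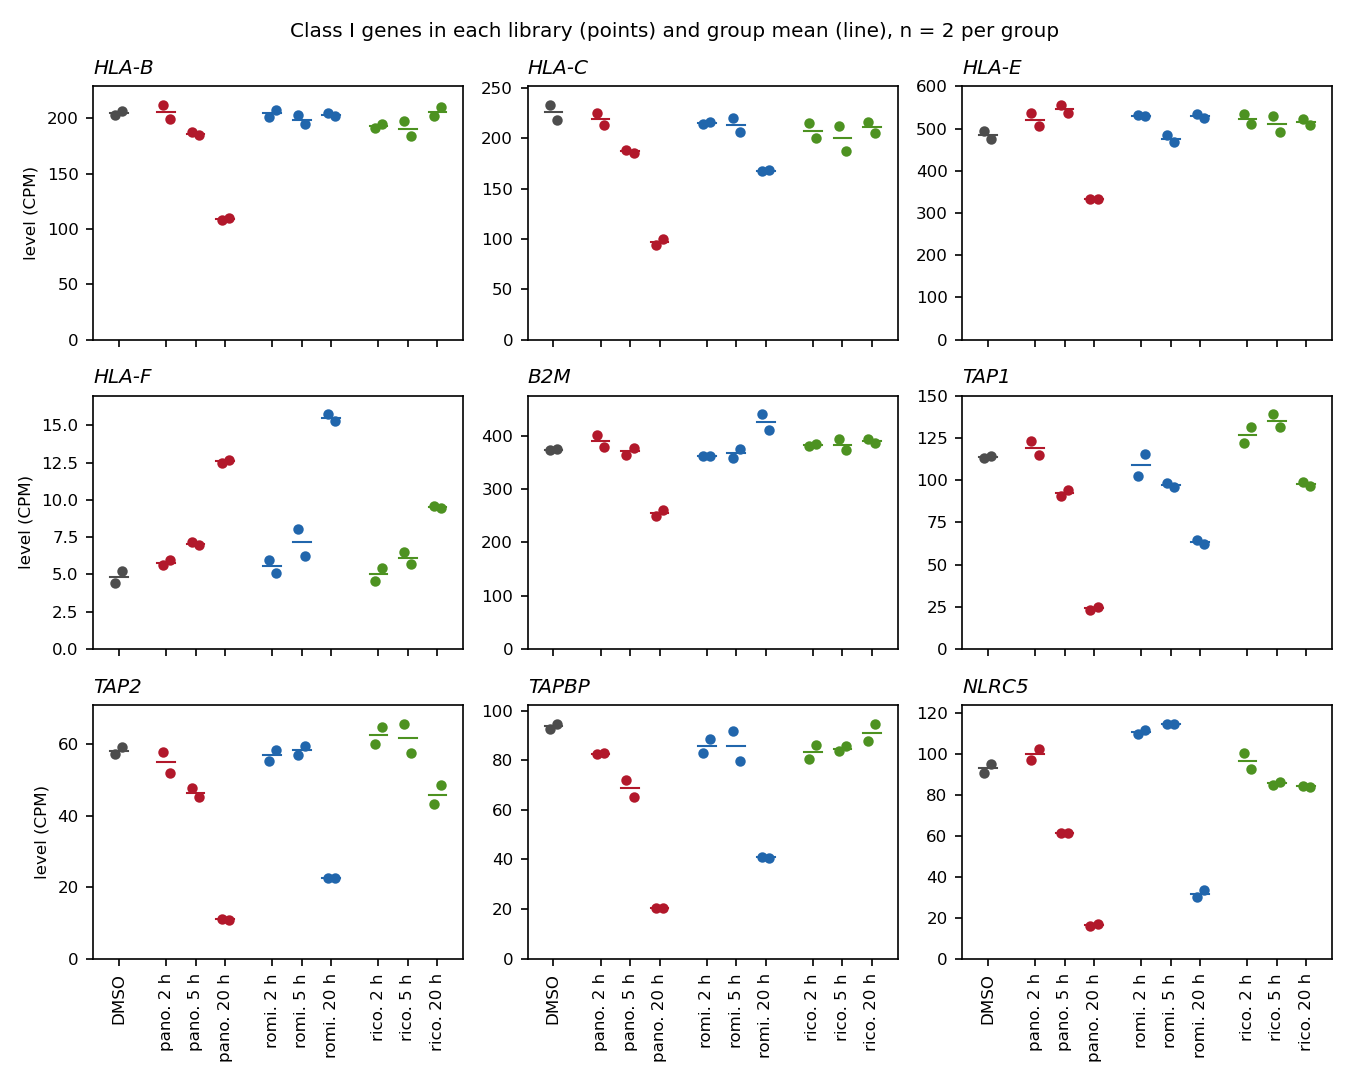
Level in CPM (linear axis from 0) of the 9 class I genes in each library, with the group mean as a line, for DMSO and for panobinostat, romidepsin and ricolinostat at 2, 5 and 20 h. Panobinostat at 20 h is the lowest group for 8 genes, with NLRC5 at 15.9 and 16.7 CPM, while HLA-F is highest after 20 h of romidepsin, at 15.7 and 15.3 CPM.

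With 20 h of romidepsin, class I genes went in both directions. The transporter, loading and activator genes and HLA-C were lower than in DMSO, HLA-F, HLA-E and B2M were higher, and HLA-B did not pass the test. That made 5 genes lower and 3 higher, where 29.9% of all genes tested were lower and 38.6% higher. The higher count lay near the share of all genes. The median log2 fold change was -0.43 for the 9 genes and 0.22 over all genes.

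NLRC5 had 29.96 and 33.3 CPM after 20 h of romidepsin, against 90.4 and 95 CPM in DMSO, a log2 fold change of -1.55 ± 0.06 (edgeR adjusted p = 7.7e-43). TAP2 had 22.4 and 22.5 CPM, against 57.1 and 59.2 CPM in DMSO, a change of -1.37 ± 0.08 (edgeR adjusted p = 5e-32). TAPBP had 41.2 and 40.7 CPM, against 92.6 and 94.8 CPM in DMSO, a change of -1.19 ± 0.06 (edgeR adjusted p = 1.9e-33). In each of these genes the romidepsin libraries lay below the DMSO libraries. TAP1 had 64.8 and 62.2 CPM, against 113 and 114 CPM in DMSO, a change of -0.84 ± 0.06 (edgeR adjusted p = 4.7e-26). HLA-C had 168 and 168.5 CPM, against 233 and 219 CPM in DMSO, a change of -0.43 ± 0.05 (edgeR adjusted p = 1.1e-13), and -0.19 when scaled by library size alone. TAP1 and TAP2 encode the 2 chains of 1 transporter; whether their falls differed in size was not tested.

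HLA-F had 15.7 and 15.3 CPM after 20 h of romidepsin, against 4.45 and 5.22 CPM in DMSO, a log2 fold change of 1.68 ± 0.16 (edgeR adjusted p = 2.8e-17). HLA-F-AS1 had 2.62 and 3.56 CPM in the same romidepsin libraries. B2M had 440.5 and 411 CPM, against 373 and 375 CPM in DMSO, a change of 0.19 ± 0.04 (edgeR adjusted p = 2.3e-05). Leaving out the first romidepsin library took this to 0.06 (edgeR adjusted p = 0.43), and scaling by library size alone gave 0.42. HLA-E had 535 and 525 CPM, against 493 and 475 CPM in DMSO, a change of 0.13 ± 0.04 (edgeR adjusted p = 0.0019), which was 0.37 with library-size scaling and missed the threshold when any 1 of the 4 libraries was left out, at 0.04 to 0.11. HLA-B had 205 and 202 CPM, against 203 and 207 CPM in DMSO, a change of -0.01 with a 95% interval of -0.10 to 0.07. Library-size scaling gave 0.22 for HLA-B (edgeR adjusted p = 1.2e-06) and a fit on these groups alone gave -0.07 (edgeR adjusted p = 0.047), so its direction depended on the setting.

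Ricolinostat at 100 nM left most of the pathway close to the vehicle level at 20 h. HLA-F was higher, TAP2, TAP1 and NLRC5 were lower, and 5 genes did not pass the test, where 14.7% of all genes tested were higher and 16.4% lower. HLA-F had 9.59 and 9.43 CPM after 20 h of ricolinostat, against 4.45 and 5.22 CPM in DMSO, a log2 fold change of 0.97 ± 0.17 (edgeR adjusted p = 7.1e-07). HLA-F-AS1 had 1.11 and 0.997 CPM there. TAP2 had 43.1 and 48.7 CPM, against 57.1 and 59.2 CPM in DMSO, a change of -0.34 ± 0.07 (edgeR adjusted p = 3.4e-05). TAP1 had 98.6 and 96.4 CPM, against 113 and 114 CPM in DMSO, a change of -0.22 ± 0.05 (edgeR adjusted p = 6.1e-04), which was -0.12 and past no threshold with library-size scaling. NLRC5 had 84.3 and 83.7 CPM, against 90.4 and 95 CPM in DMSO, a change of -0.14 ± 0.06 (edgeR adjusted p = 0.044) that missed the threshold with library-size scaling (-0.04) and without DMSO replicate 2 (-0.11) or either ricolinostat library (-0.15 each).

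The ricolinostat intervals of the 5 remaining genes were narrow. Log2 changes at 20 h were 0.01 for HLA-B (95% interval -0.08 to 0.09), -0.10 for HLA-C (-0.19 to -0.01) and 0.09 for HLA-E (0.02 to 0.17). They were 0.06 for B2M (-0.02 to 0.14) and -0.04 for TAPBP (-0.16 to 0.08). Dose differed between ricolinostat and the other inhibitors, so these values are set side by side without a test.

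**Figure D2:**
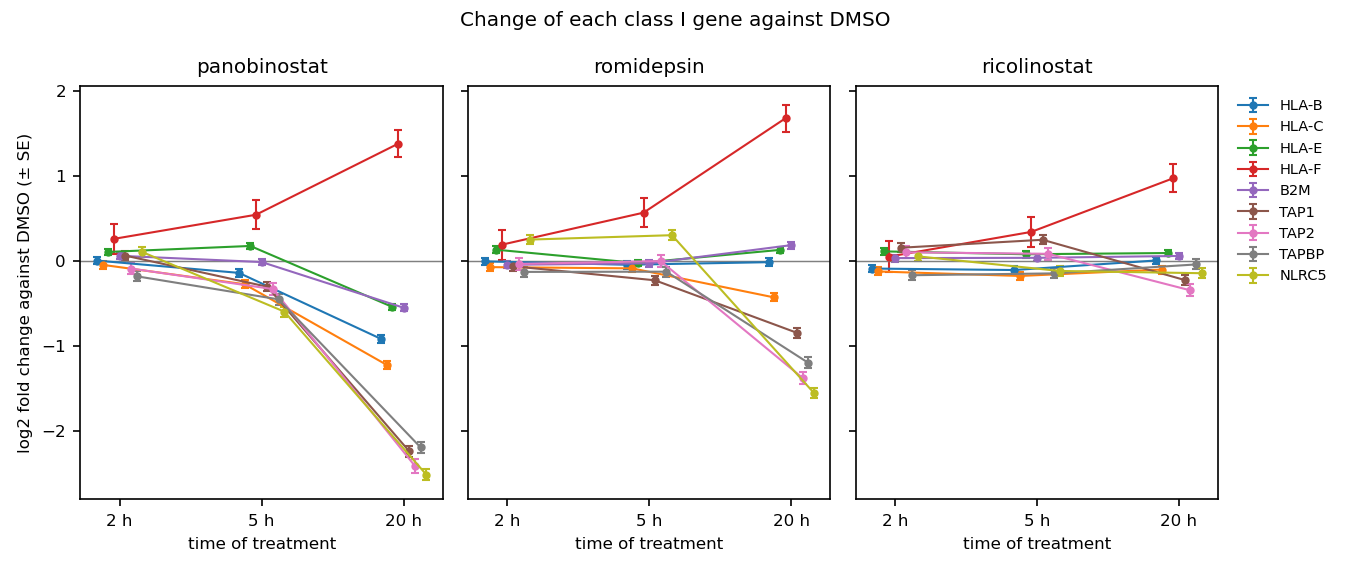
Log2 fold change against DMSO with its standard error for each class I gene (coloured lines) at 2, 5 and 20 h of panobinostat, romidepsin and ricolinostat. HLA-F reaches 1.38, 1.68 and 0.97 at 20 h, while NLRC5 reaches -2.51, -1.55 and -0.14.

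The earlier times differed between panobinostat and romidepsin. After 5 h of panobinostat, 6 class I genes were lower and 2 higher, where 25.9% of all genes were lower and 30.7% higher. NLRC5 was already lowest in relative terms, at 61.5 and 61.4 CPM, against 90.4 and 95 CPM in DMSO, a log2 fold change of -0.59 ± 0.06 (edgeR adjusted p = 5e-16). TAPBP changed by -0.45 ± 0.06, TAP2 by -0.33 ± 0.07, TAP1 by -0.30 ± 0.06, HLA-C by -0.27 ± 0.05 and HLA-B by -0.14 ± 0.04 (edgeR adjusted p of 0.0053 or less). The HLA-B change was -0.01 with library-size scaling (edgeR adjusted p = 0.88), and those of HLA-C, TAP1 and TAP2 were -0.14, -0.17 and -0.20. HLA-E had 556 and 538 CPM, against 493 and 475 CPM in DMSO, a rise of 0.18 ± 0.04 (edgeR adjusted p = 4.1e-05). It was 0.31 with library-size scaling and 0.12, at the threshold, without DMSO replicate 2.

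After 5 h of romidepsin, NLRC5 and HLA-F were higher and TAP1 was lower, where 13.0% of all genes were higher and 16.5% lower. NLRC5 had 114.5 and 114.4 CPM after 5 h of romidepsin, against 90.4 and 95 CPM in DMSO, a log2 fold change of 0.30 ± 0.06 (edgeR adjusted p = 4e-06). Both romidepsin libraries were above both DMSO libraries, and NLRC5 changed by -1.85 ± 0.06 at 20 h against 5 h of romidepsin (edgeR adjusted p = 2.4e-49). TAP1 had 98.5 and 96.0 CPM, against 113 and 114 CPM in DMSO, a change of -0.23 ± 0.05 (edgeR adjusted p = 5.3e-04), or -0.10 with library-size scaling (edgeR adjusted p = 0.16). TAP2 had 57.0 and 59.4 CPM, a change of 0.00 with a 95% interval of -0.14 to 0.14. HLA-F changed by 0.57 ± 0.17 after 5 h of romidepsin (edgeR adjusted p = 0.0059) and by 0.54 ± 0.17 after 5 h of panobinostat (edgeR adjusted p = 0.0049). Without DMSO replicate 1 these were 0.45 and 0.41 and missed the threshold, as did 0.36 without the first romidepsin library.

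Ricolinostat for 5 h gave 1 gene higher and 2 lower, where 18.8% of all genes were higher and 15.3% lower. TAP1 had 139 and 132 CPM after 5 h of ricolinostat, against 113 and 114 CPM in DMSO, a log2 fold change of 0.25 ± 0.05 (edgeR adjusted p = 6.1e-05). Without the first ricolinostat library it was 0.10 (edgeR adjusted p = 0.33). TAP1 fell by 0.47 on the log2 scale at 20 h against 5 h (edgeR adjusted p = 1.8e-12). HLA-C changed by -0.18 ± 0.05 and TAPBP by -0.14 ± 0.06 at 5 h (edgeR adjusted p = 0.0015 and 0.048); HLA-C missed the threshold without the second ricolinostat library (-0.12), and TAPBP without DMSO replicate 2 (-0.17) or with library-size scaling (-0.11).

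Changes at 2 h were small. Panobinostat for 2 h gave 1 gene higher and 1 lower, with 20.8% of all genes higher and 18.1% lower. The gene that rose was HLA-E (0.11 ± 0.04, edgeR adjusted p = 0.02) and the one that fell was TAPBP (-0.18 ± 0.06, edgeR adjusted p = 0.01). Romidepsin for 2 h gave 2 higher and 0 lower, with 3.55% of all genes higher and 4.62% lower. NLRC5 had 109 and 112 CPM after 2 h of romidepsin, against 90.4 and 95 CPM in DMSO, a change of 0.25 ± 0.06 (edgeR adjusted p = 6.3e-04), and HLA-E changed by 0.13 ± 0.04 (edgeR adjusted p = 0.015). Ricolinostat for 2 h gave 2 higher and 2 lower, with 16.9% of all genes higher and 14.5% lower, namely TAP1 (0.16 ± 0.05), HLA-E (0.11 ± 0.04), HLA-C (-0.12 ± 0.05) and TAPBP (-0.17 ± 0.06). Each of these calls at 2 h was lost without at least 1 library: HLA-E when any 1 of the 4 libraries compared was left out, NLRC5 without DMSO replicate 1 (0.20), and TAPBP without DMSO replicate 2 (-0.18 with panobinostat, -0.17 with ricolinostat). TAP1 was lost when any 1 of its 4 libraries was left out (0.03 to 0.14) and HLA-C without DMSO replicate 1 (-0.10) or the second ricolinostat library (-0.14).

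Romidepsin and panobinostat were given at the same molar dose and were compared at each time. Whether that dose gave equal inhibition was not tested. At 2 h, 3.55% of all genes were higher and 4.62% lower than in DMSO with romidepsin. With panobinostat these shares were 20.8% and 18.1%. At 20 h, RNA of 8 of the 9 class I genes was higher with romidepsin than with panobinostat and 0 were lower, where 23.4% of all genes were higher and 18.3% lower. The median log2 difference, romidepsin over panobinostat, was 0.90 for the 9 genes and 0.00 over all genes. TAP1 differed most, with 64.8 and 62.2 CPM with romidepsin and 23.1 and 25.1 CPM with panobinostat, a log2 difference of 1.39 ± 0.06 (edgeR adjusted p = 3.9e-37). TAP2 differed by 1.03 ± 0.09, TAPBP by 0.99 ± 0.07, NLRC5 by 0.96 ± 0.07 and HLA-B by 0.90 ± 0.05. HLA-C differed by 0.79 ± 0.05, B2M by 0.73 ± 0.04 and HLA-E by 0.67 ± 0.04. HLA-F had 15.7 and 15.3 CPM with romidepsin and 12.5 and 12.7 CPM with panobinostat, a difference of 0.30 with a 95% interval of 0.02 to 0.58 that did not pass over all genes (edgeR adjusted p = 0.078). It passed in a fit on these groups alone (0.29, edgeR adjusted p = 0.023).

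At 5 h, 4 class I genes were higher and 1 lower with romidepsin than with panobinostat, where 24.8% of all genes were higher and 25.9% lower. NLRC5 differed by 0.90 ± 0.06 (edgeR adjusted p = 1.8e-26), the largest of the 9 at that time. TAP2 and TAPBP each differed by 0.33, HLA-C by 0.19 ± 0.05 and HLA-E by -0.20 ± 0.04 (edgeR adjusted p of 5e-04 or less). TAP1 did not pass at 5 h, at 0.08 with a 95% interval of -0.04 to 0.19. At 2 h, 1 gene was higher and 1 lower, where 17.3% of all genes were higher and 19.8% lower. These were NLRC5 (0.15 ± 0.06, edgeR adjusted p = 0.027) and B2M (-0.11 ± 0.04, edgeR adjusted p = 0.029). NLRC5 missed the threshold when any of 3 libraries was left out in turn (0.12 to 0.17, panobinostat replicate 1 and both romidepsin libraries), as did B2M for each of the 4 (-0.12 to -0.06).

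**Figure D3:**
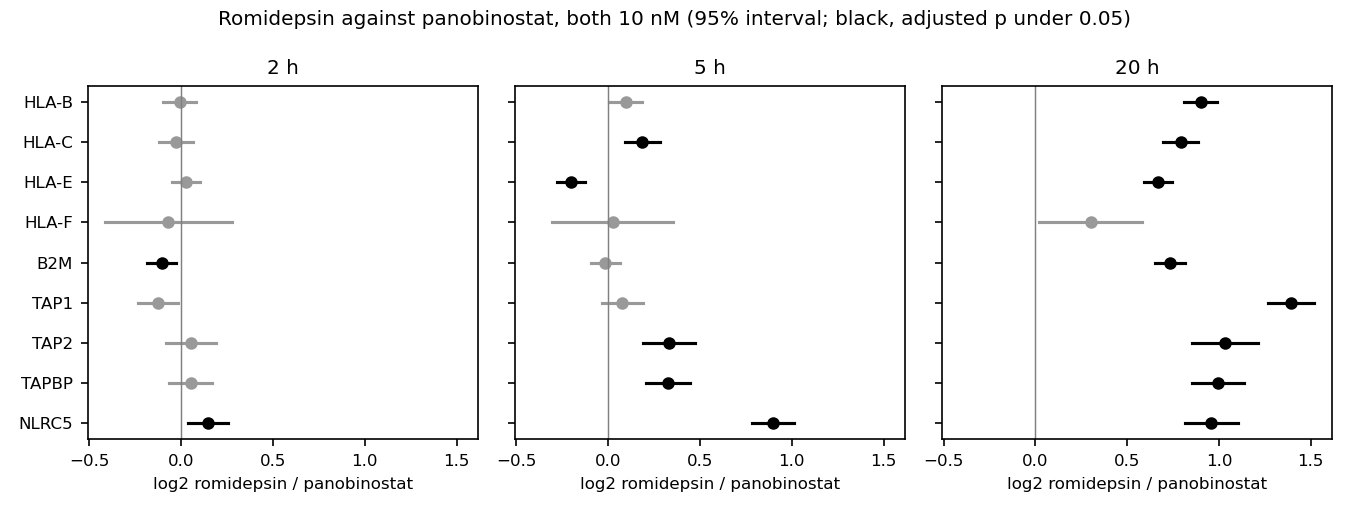
Log2 ratio of romidepsin over panobinostat, both at 10 nM, with its 95% interval for each class I gene at 2, 5 and 20 h on 1 shared axis; black marks an adjusted p under 0.05. At 20 h the 9 values run from 0.30 for HLA-F to 1.39 for TAP1, while at 5 h NLRC5 stands apart at 0.90.

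Over the 10 groups, the profiles of TAP2, TAPBP and NLRC5 were alike, with Pearson correlations of mean log2 CPM of 0.974 to 0.979 among them. B2M was less like NLRC5 (0.603) than like HLA-B (0.941). HLA-F correlated negatively with each of the 8 others, from -0.838 with TAP2 to -0.234 with B2M. These are descriptions over 10 group means that share the DMSO libraries and a time course. Of 11097 genes with at least 5 CPM in a group, those most like HLA-B were MACROD2 (0.987), AKR1B1 (0.983) and CEP70 (0.981), with 30 genes above 0.95. Most like B2M were NDUFA4 (0.971), ITM2B (0.966) and NAP1L1 (0.964), with 7 above 0.95. HNRNPA2B1 (0.991), ARPC2 (0.989) and COX7B (0.989) were most like TAP1, with 294 genes above 0.95. PSMA1, TPM4 and TMEM38A (each 0.995) were most like NLRC5, with 840 above 0.95, so its profile was a common one.

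Genes for peptide supply and for the folding and loading of class I chains were measured beside the 9. Of 12 such genes, 2 were higher and 9 lower after 20 h of panobinostat, where 40.8% of all genes were higher and 32.3% lower. After 20 h of romidepsin 3 were higher and 8 lower, beside 38.6% and 29.9% of all genes, and after 20 h of ricolinostat 2 were higher and 7 lower, beside 14.7% and 16.4%. Their median log2 fold changes with panobinostat, romidepsin and ricolinostat were -0.98, -0.90 and -0.19, against 0.25, 0.22 and 0.03 over all genes. PSMB10, an inducible catalytic subunit of the immunoproteasome, had 0.871 CPM after 20 h of panobinostat, against 38.5 CPM in DMSO, a log2 fold change of -5.46 ± 0.14 (edgeR adjusted p = 1.9e-58). With romidepsin it changed by -3.48 ± 0.12 and with ricolinostat by -0.65 ± 0.09. PSMB8, another inducible subunit, changed by -2.89 ± 0.08 with panobinostat and -1.50 ± 0.07 with romidepsin. ERAP1 and ERAP2, aminopeptidases that trim peptides in the endoplasmic reticulum, changed by -2.77 ± 0.08 and -3.27 ± 0.15 after 20 h of panobinostat, and by -1.13 ± 0.07 and -0.94 ± 0.12 after 20 h of romidepsin. TAPBPL, a peptide editor related to tapasin, changed by -1.51 ± 0.09 with each of these inhibitors.

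The genes of this list that rose with panobinostat were CALR and UGGT1, 2 glycoprotein quality-control genes of the endoplasmic reticulum named after their values were seen, at 0.91 ± 0.04 and 0.59 ± 0.04. With romidepsin they were joined by PSMB9. CANX and PDIA3, also endoplasmic reticulum genes of this list, fell at 20 h. They changed by -0.72 ± 0.04 and -1.24 ± 0.05 with panobinostat, and by -0.86 ± 0.04 and -1.04 ± 0.05 with romidepsin. The constitutive catalytic subunits PSMB5, PSMB6 and PSMB7 were all lower at 20 h with each inhibitor. With panobinostat they changed by -1.77, -0.69 and -0.53, with romidepsin by -1.68, -0.99 and -0.55, and with ricolinostat by -0.27, -0.25 and -0.23.

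PSMB9 and TAP1 start 488 bases apart on opposite strands, and their RNA took different courses. PSMB9, the third inducible subunit, averaged 34.4 ± 0.06 CPM after 20 h of romidepsin and 18.0 ± 0.84 CPM in DMSO (SD, n = 2 each), a log2 fold change of 0.93 ± 0.09 (edgeR adjusted p = 9.3e-17), while TAP1 changed by -0.84. After 20 h of panobinostat PSMB9 averaged 17.6 ± 1.29 CPM, a change of -0.04 with a 95% interval of -0.23 to 0.14, while TAP1 changed by -2.23. At 5 h PSMB9 was higher with each inhibitor, by 0.74 ± 0.09 with panobinostat, 0.61 ± 0.09 with romidepsin and 0.83 ± 0.09 with ricolinostat, and TAP1 changed by -0.30, -0.23 and 0.25. This pair was chosen for display after its values were seen, and the difference between its members was not tested. PSMB8-AS1, which shares 456 exonic bases with TAP1 on the opposite strand, had 1.96 and 2.28 CPM after 20 h of panobinostat and 6.44 and 5.85 CPM in DMSO.

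**Figure D4:**
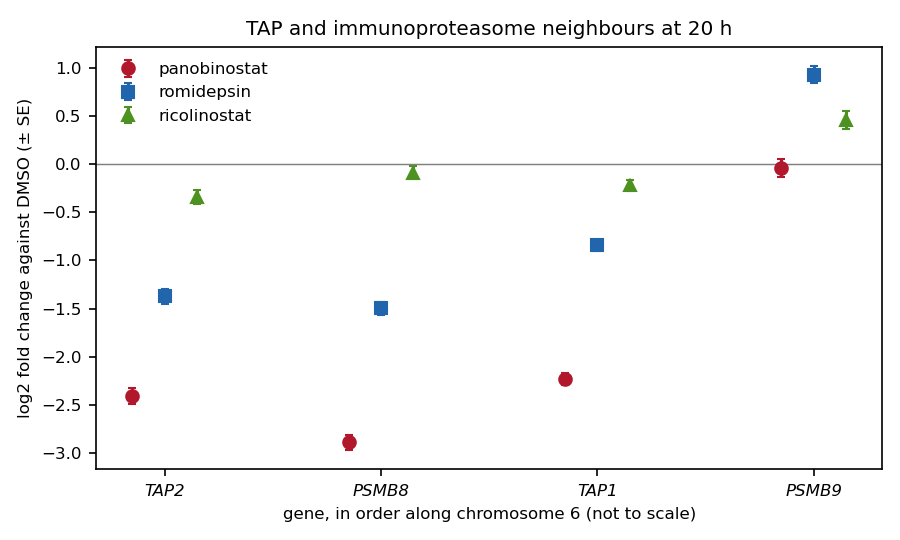
Log2 fold change against DMSO with its standard error at 20 h for TAP2, PSMB8, TAP1 and PSMB9, in their order along chromosome 6 and not to scale, for panobinostat (circles), romidepsin (squares) and ricolinostat (triangles). TAP1 stands at -2.23, -0.84 and -0.22, and its neighbour PSMB9 at -0.04, 0.93 and 0.46.

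Among 16 transcription factors and chromatin enzymes linked to class I promoters, 5 were higher and 10 lower after 20 h of panobinostat, beside 40.8% and 32.3% of all genes. After romidepsin 7 were higher and 7 lower, beside 38.6% and 29.9%, and after ricolinostat 4 were higher and 6 lower, beside 14.7% and 16.4%. The share that was higher with romidepsin lay near that of all genes. Median log2 fold changes of the 16 were -0.63, -0.17 and -0.08 with the 3 inhibitors in that order. NFKB1, which encodes the p50 subunit of NF-kB, averaged 5.84 CPM with panobinostat, against 70.2 CPM in DMSO, a log2 fold change of -3.60 ± 0.09 (edgeR adjusted p = 7.1e-61), and changed by -2.05 ± 0.08 with romidepsin and -0.47 ± 0.07 with ricolinostat. STAT2, a subunit of the interferon-activated complex ISGF3, rose by 1.69 ± 0.06, 1.95 ± 0.06 and 0.95 ± 0.06 with the same inhibitors. IRF2 changed by -1.67 ± 0.08 and CREB1 by -1.35 ± 0.06 with panobinostat, and NFYC by -1.13 ± 0.09 with romidepsin. Subunits of a complex did not all move together. RELA, another NF-kB subunit gene, rose by 0.86 ± 0.05 with panobinostat and 0.61 ± 0.05 with romidepsin. NFYA rose by 0.65 ± 0.06 and 0.78 ± 0.06 with these, while NFYB changed by -1.15 ± 0.09 and -0.62 ± 0.09. CIITA, the class II counterpart of NLRC5, averaged 38.9 CPM after 20 h of romidepsin, against 11.9 CPM in DMSO, a change of 1.71 ± 0.11 (edgeR adjusted p = 4.1e-28), while NLRC5 fell. With panobinostat, where NLRC5 fell further, CIITA did not pass the test (0.02 ± 0.12, edgeR adjusted p = 0.89). With ricolinostat CIITA changed by 0.74 ± 0.11 and IRF1 by -0.998 ± 0.13. At 5 h CIITA changed by 1.37 ± 0.11 with panobinostat and 1.32 ± 0.11 with romidepsin.

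Romidepsin exceeded panobinostat at 20 h for 10 of these 16 factors, and 1 was lower, beside 23.4% of all genes higher and 18.3% lower. CIITA differed by 1.69 ± 0.10, NFKB1 by 1.56 ± 0.10, IRF2 by 1.35 ± 0.08 and CREB1 by 0.69 ± 0.06. Of 7 interferon receptor and kinase genes, 3 were higher and 4 lower after 20 h of panobinostat, 2 higher and 5 lower after romidepsin, and 1 higher and 1 lower after ricolinostat. The all-gene shares are those given for the factors, and the counts with ricolinostat and the higher count with panobinostat lay near them. Medians of the 7 were -0.92, -0.55 and -0.09. IFNGR1, the ligand-binding chain of the interferon-gamma receptor, changed by 1.67 ± 0.09, 1.75 ± 0.09 and 0.39 ± 0.10 with those inhibitors. The other chain of that receptor, IFNGR2, went the other way. It changed by -3.15 ± 0.32 with panobinostat and -1.65 ± 0.27 with romidepsin, from a low mean of 4.45 CPM in DMSO. IFNAR2, a chain of the type I interferon receptor, changed by -2.33 ± 0.13 with panobinostat and -1.54 ± 0.12 with romidepsin.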

How the data were processed

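The deposited table holds raw counts by Ensembl gene. The submitters' processing notes list featureCounts, HISAT2 and SAMtools as the authors' tools and GRCh38 as their build. For annotation release, strand setting and multi-mapped reads, the choice is not given in the sources used here. Symbols came from a name table, and gene positions and union exon lengths from GENCODE 29. Counts were filtered with filterByExpr (minimum count 10), scaled by TMM and fitted in edgeR 4.0.16 (R 4.3.3) by robust quasi-likelihood over all 10 groups at once, giving a biological coefficient of variation of 0.0419. P-values were adjusted by Benjamini-Hochberg over all 20957 genes within each of 21 contrasts, with a threshold of 0.05. The fit was tested on simulated data in which a small set of genes changed, in both directions. At 20 h of panobinostat 40.8% of all genes were higher and 32.3% lower, so that test cannot check the scaling there. Promoters were RefSeq's, build GRCh38.p14.

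The 9 members and the other lists were chosen with earlier results of these data known. Most genes named from the other lists were picked by a rule, up to 4 a contrast. These had the largest absolute log2 fold change past the threshold and at least 5 CPM in a group. Genes so picked were also given in other contrasts. Some genes that met the rule, such as JAK2 with panobinostat, were not named, and some outside it were. Alternatives were other scalings, no filter, DESeq2 1.42.0, the compared groups alone, a replicate block and leaving out each library.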

Additional observations from a re-analysis of the deposited data

Results flagged for a closer look

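RNA differed between 20 h and 2 h of an inhibitor, by the edgeR contrast of those times, for all 9 class I genes with panobinostat, 7 with romidepsin and 4 with ricolinostat. Of all genes tested, 67.8%, 66.9% and 43.4% passed in either direction in those contrasts, so the counts with romidepsin and ricolinostat lay near the share of all genes. Differences are given as the log2 change against DMSO at 20 h minus that at 2 h, in which the DMSO group cancels. DMSO had no harvest time, so time in culture and the inhibitor cannot be told apart in them. With panobinostat they were -2.61 for NLRC5, -2.32 for TAP2, -2.30 for TAP1 and -2.01 for TAPBP. The chains differed by -1.17 for HLA-C, -0.92 for HLA-B, -0.65 for HLA-E and -0.61 for B2M, and HLA-F by 1.12. With romidepsin they were -1.80 for NLRC5, -1.34 for TAP2, -1.07 for TAPBP, -0.78 for TAP1 and -0.36 for HLA-C, and 1.49 for HLA-F and 0.23 for B2M. With ricolinostat they were -0.45 for TAP2, -0.38 for TAP1, -0.20 for NLRC5 and 0.92 for HLA-F. Groups of 2 libraries were too small for a test of outlying samples.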

How the results depend on the processing

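Counts of class I genes lower at 20 h of panobinostat (8), lower at 20 h of romidepsin (5) and higher with romidepsin than panobinostat at 20 h (8) moved by less than 1.5 times under every alternative run. Smaller counts moved. With RLE size factors, higher genes numbered 0 at 2 h of panobinostat, 1 at 2 h of romidepsin and 0 at 2 h of ricolinostat, and lower genes 3 at 5 h of romidepsin, 4 at 5 h of ricolinostat and 0 for romidepsin against panobinostat at 2 h. With library size only, higher and lower numbered 4 and 0 at 5 h of romidepsin, 2 and 1 at 5 h of ricolinostat and 4 and 1 at 20 h of ricolinostat, and lower 0 for romidepsin against panobinostat at 2 h. Without a filter, higher genes numbered 0, 1 and 0 at 2 h of panobinostat, romidepsin and ricolinostat, lower genes 1 at 2 h of ricolinostat, and both 0 for romidepsin against panobinostat at 2 h. DESeq2 gave 0 higher at 2 h of panobinostat and of ricolinostat, 4 lower at 5 h of ricolinostat and 0 lower for romidepsin against panobinostat at 2 h. The compared groups alone gave 0 higher at 2 h of panobinostat, 4 lower at 5 h and 2 higher at 20 h of ricolinostat, and 0 lower for romidepsin against panobinostat at 2 h. The cause was not tested.

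Leaving out 1 library, higher and lower genes numbered 0 to 0 and 0 to 1 at 2 h of panobinostat, 0 to 0 and 1 to 2 at 2 h of ricolinostat, and 0 to 1 and 1 to 4 at 5 h of ricolinostat. They numbered 1 to 2 and 1 to 2 at 5 h of romidepsin and 0 to 1 and 0 to 1 for romidepsin against panobinostat at 2 h. Higher genes alone numbered 1 to 2 at 5 h of panobinostat, 0 to 1 at 2 h of romidepsin and 1 to 2 at 20 h of romidepsin. HLA-E at 2 h of ricolinostat ranged from -0.0051 without the first ricolinostat library to 0.12.

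Library-size scaling turned the sign and made a call of B2M at 5 h of panobinostat (0.12) and romidepsin (0.10), HLA-E at 5 h of romidepsin (0.10), HLA-B at 20 h of romidepsin against DMSO (0.22) and against 2 h (0.18), and HLA-E at 20 h against 2 h of romidepsin (0.19) and ricolinostat (0.10). It raised the share of calls that were higher to 65.9% at 20 h of panobinostat, against 55.8% with TMM. The same shares were 65.6% and 43.4% at 2 h of romidepsin, 71.3% and 44.1% at 5 h of romidepsin, 66.1% and 56.3% at 20 h of romidepsin, and 66.2% and 47.3% at 20 h of ricolinostat. All-gene medians rose by over 0.1, to 0.25 at 5 h and 0.56 at 20 h of panobinostat, 0.15 at 5 h and 0.46 at 20 h of romidepsin, and 0.14 at 20 h of ricolinostat.

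Replicate numbers did not pair the libraries: over 45 group pairs the correlation of deviations ran from -0.02 to 0.03. With a replicate block, 188 of 189 values of the class I genes kept their direction and call, and HLA-E at 20 h of ricolinostat passed (0.09, edgeR adjusted p = 0.036), which made 2 genes higher there.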
